A study of Rattus norvegicus with 3 samples.

Results

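The highest-scoring Seh1 peaks of rat oligodendrocyte progenitor cells (OPC) outside annotated repeats were described one by one and as a group. They were chosen by the peak caller's own score: a score of 9.5 or more, a detailed annotation without a repeat label, and no position within 300 bp of the start of Rn7sl1, the gene of the 7SL RNA. The rule found 447 peaks, 4.92% of the 9084 annotated OPC peaks and 7.37% of the 6062 annotated peaks outside repeats. Another 370 peaks reached the same score, of which 368 carried a repeat label and 2 lay at Rn7sl1. The other 5615 peaks outside repeats scored lower. The rule removed repeats and 7SL copies but not every small RNA gene: 1 of the 447 peaks lay at the gene of a catalytic RNA. Another 10 had a microRNA as the nearest gene, but only 3 of these were centred within 1 kb of its start.

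Seh1 was mapped by ChIP-seq, in which DNA crosslinked to a protein is pulled down with an antibody and sequenced, in immature oligodendrocytes (iOL), made by giving OPC triiodothyronine (T3) at 60 nM for 1 day with growth factors PDGF-AA, bFGF and NT3 withdrawn, and in OPC kept in those factors. Both came from the forebrain of Sprague Dawley rats at postnatal day 1 to 2, and all cells were fixed with 1% formaldehyde for 10 min. There was 1 Seh1 library per stage, and an IgG library of iOL that was not analysed here. On build rn6 the iOL library had 6704 called peaks, each 209 bp wide, and the OPC library 9117, each 205 bp wide. The labels do not say how many animals gave the cells, and peak lists hold no expression values, so the cell type was not checked against marker genes. The depth is unknown, as the files and labels used here state no read totals. A single library per stage leaves no replicate error to set against a difference, so the tests below compare lists of peaks and not stages.

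Seh1 is a subunit of the Y complex, the scaffold that forms the outer rings of the nuclear pore. It also belongs to the GATOR2 complex, which acts in amino acid signalling to mTORC1. Several nucleoporins are known to contact chromatin, at the pore or away from it. Oligodendrocyte progenitors divide in response to PDGF and leave the cell cycle as they differentiate, a step that T3 promotes, and the transcription factor Olig2 binds E-box motifs in these cells.

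The sequences of 3 promoters are shown because each had a high-scoring peak centred within it by its deposited distance from the rn6 start. Together they hold examples of 3 motifs discussed further on. Among the promoter peaks centred within the 250 bases shown and with a sequence in the table, Polr3e, a subunit of RNA polymerase III, had the highest score, Niban2 the next, and Gsn, the actin-severing protein gelsolin, the most E-boxes. Capitals mark the GC box GGGCGG, the E-box CANNTG and the motif GGTTCGA, each on either strand. The sequences are RefSeq's, build GRCr8, and cover the 250 bases before the transcription start site (TSS), all on the plus strand: chr1:184897165-184897414 for Polr3e, chr3:36572106-36572355 for Niban2 and chr3:39008682-39008931 for Gsn.
Polr3e: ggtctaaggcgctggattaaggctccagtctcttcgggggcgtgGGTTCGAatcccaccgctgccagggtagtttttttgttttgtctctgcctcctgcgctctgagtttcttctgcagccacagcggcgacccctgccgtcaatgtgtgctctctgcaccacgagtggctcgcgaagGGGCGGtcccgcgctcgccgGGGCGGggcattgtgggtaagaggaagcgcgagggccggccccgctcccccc
Niban2: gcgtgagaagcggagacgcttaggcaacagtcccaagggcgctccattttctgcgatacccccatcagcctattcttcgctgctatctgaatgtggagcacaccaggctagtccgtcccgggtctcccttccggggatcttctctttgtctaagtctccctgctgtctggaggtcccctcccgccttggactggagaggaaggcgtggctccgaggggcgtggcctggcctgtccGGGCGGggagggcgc
Gsn: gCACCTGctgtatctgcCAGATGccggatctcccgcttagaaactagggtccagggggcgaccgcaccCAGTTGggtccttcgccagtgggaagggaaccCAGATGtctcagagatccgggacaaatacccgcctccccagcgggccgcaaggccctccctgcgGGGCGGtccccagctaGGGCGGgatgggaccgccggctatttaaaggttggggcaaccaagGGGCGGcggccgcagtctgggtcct

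The scores were crowded at the threshold. They lay on multiples of 1 step of 0.638, the lowest member standing at 15 steps. At the lowest score of 9.58 there were 192 peaks, and 332 stood at the 3 lowest scores; just outside, 394 peaks scored 8.94. The median was 10.2 and the upper quartile 11.5, while 26 peaks scored over 15 and 9 over 20. The caller's focus ratio, a fraction given for each peak, had a median of 0.783 among the high-scoring peaks, 0.773 among the lower-scoring ones and 0.737 among the high-scoring repeat peaks. The header of the deposited table defines neither quantity, and both come from the library that chose the peaks, so they are given as a description.

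A pair of peaks on chromosome 4 stood far above the rest. The peak at chr4:77447846-77448050 scored 197.3 and had Pdia4, an endoplasmic reticulum protein disulfide isomerase, as its nearest gene, 41.6 kb away. The peak at chr4:77401233-77401437, in a CpG island, scored 100.2 and was assigned to Ezh2, the catalytic subunit of Polycomb repressive complex 2, whose start lay 54.3 kb away. They were 46.4 kb apart, no other annotated OPC peak lay within 50 kb of the higher one, and the nearest iOL peaks were 575 and 528 kb away. Both were annotated as intergenic.

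A CpG island peak 41.0 kb from Atp5mg, a subunit of mitochondrial ATP synthase deposited under its older name Atp5l, scored 31.3. An intergenic peak 104 kb from Pdcl, a phosducin-like protein, scored 28.7. Scores of 23.0 were given to a peak in the last exon of Ubb, a polyubiquitin gene, and to a peak in exon 9 of 15 of Apc, a scaffold of the complex that degrades β-catenin. The peak upstream of Polg, the mitochondrial DNA polymerase, scored 21.7 and the one 7.04 kb upstream of Mir193 scored 20.4. These were among the 9 peaks over 20.

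Of the 20 highest peaks, 14 were intergenic, 5 lay at a promoter, an exon or a UTR and 1 in an intron. In 5 of the intergenic ones the detailed label was a CpG island. Besides those above the 20 included a peak 2.04 kb from Fcgr2a, an Fc receptor of IgG (19.8). Another lay 22.3 kb from RT1-A2, a class I major histocompatibility gene (19.2). Others lay 66.4 kb from Idi2, an isopentenyl diphosphate isomerase (18.5), and 1.5 kb from Hes7, a Notch target that acts as a repressor (16.6). Further ones were 35.2 kb from Uspl1, a SUMO isopeptidase (16.6), and in the 5′ UTR of the mismatch repair gene Pms2 (16). The peak of rank 20 tied with the next at 16, which lay 201 kb from Ncald, a neuronal calcium sensor.

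**Figure D1:**
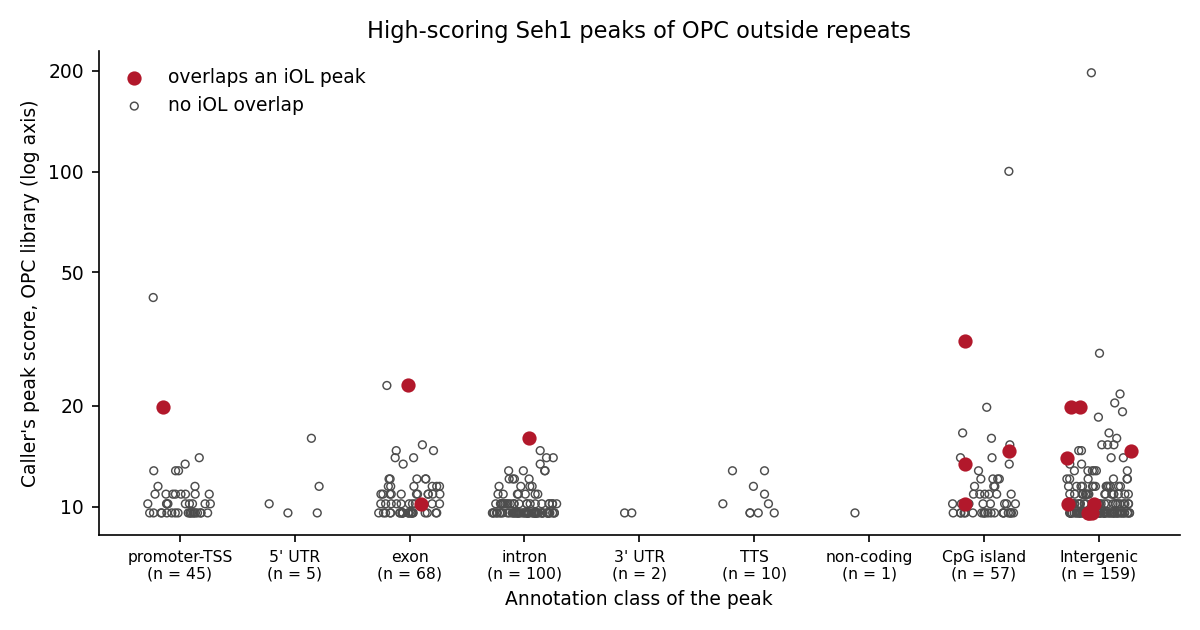
Each point is 1 of the 447 peaks; the vertical axis is the caller's score in the OPC library on a log scale, the horizontal axis the annotation class, and filled points overlap an iOL peak. Most points lie near 10 in every class, and the 2 highest, at 197.3 and 100.2, are open.

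The peak list of iOL came from a Seh1 library other than the one that gave the score. Few high-scoring OPC peaks were also called there: 17 of 447 had 1 bp or more in common with an iOL peak, or 3.8% (exact 95% interval 2.23 to 6.02%). Among the lower-scoring peaks outside repeats the overlap was 47 of 5615, or 0.837% (0.616 to 1.11%). The share was higher among the high-scoring peaks, with an odds ratio of 4.68 and an adjusted p of 2.24e-06 by Fisher's exact test, two-sided, adjusted by Benjamini-Hochberg over 2 tests. The rise of sharing with score was already known when the threshold was chosen, so this p is not independent support. Over all annotated OPC peaks 1.73% overlapped. Intervals cover counting error only. There was no IgG library of OPC, and the input named for the OPC annotation combines the OPC Seh1 library with the iOL IgG library. Whether that IgG library was a control for both lists is not given, so the lists may not be independent.

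High-scoring peaks in repeats or 7SL copies were shared more often. There 64 of 370, or 17.3% (13.6 to 21.5%), overlapped an iOL peak, which gave the peaks outside repeats an odds ratio of 0.189 (adjusted p = 2.05e-10, Fisher's exact test, two-sided). All 39 high-scoring copies of the 7SL and 7SK RNAs overlapped an iOL peak. Without those copies 25 of 331 repeat peaks did, or 7.55%, and the share of 3.8% outside repeats was still lower (adjusted p = 0.0249, Fisher's exact test, two-sided). Both tests count each repeat copy as a separate peak. Copies of the same sequence may not be independent, and the handling of multiply mapping reads is not given, so both p-values may be too small.

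Sharing among the 447 peaks was uneven along the score, which is given as a description. At 9.58 it was 3 of 192, at 10.2 it was 4 of 89, and between 10.9 and 12.1 it was 0 of 100, with an exact upper bound of 3.62%. From 12.8 to 15.3 there were 4 of 45 shared, from 16 to 23.0 there were 5 of 16, or 31.2% (11 to 58.7%), and from 28.7 upwards 1 of 5. Of the 20 highest peaks 6 were shared, yet neither of the highest 2.

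**Figure D2:**
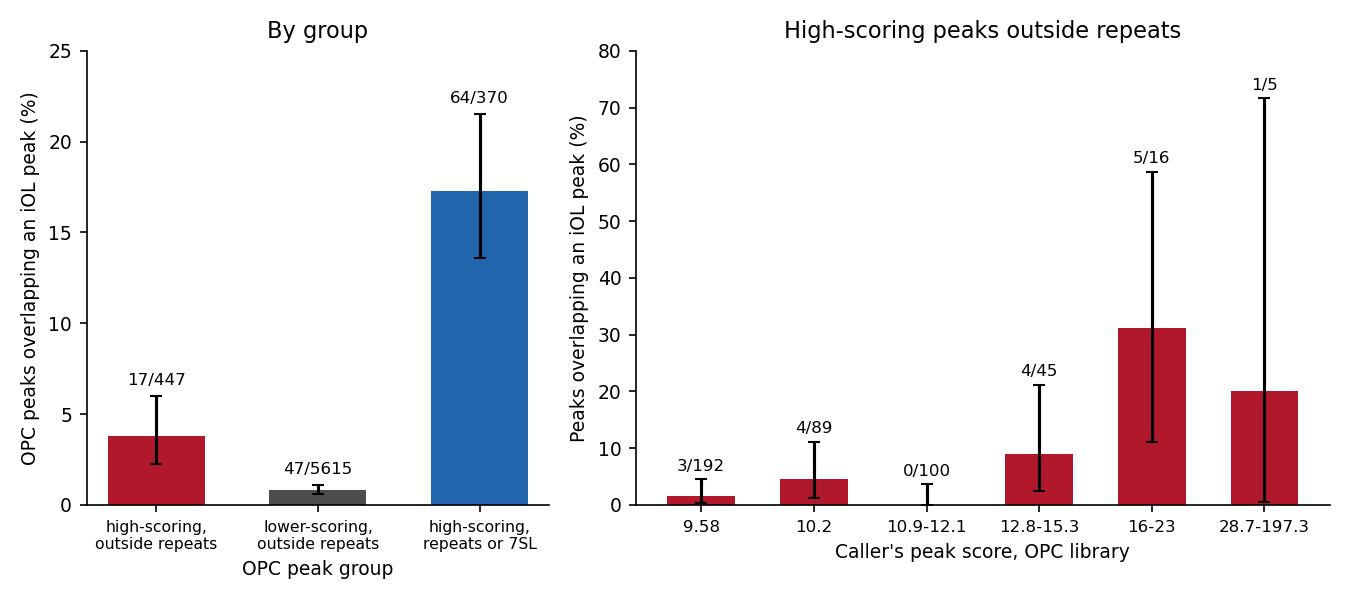
Left, the percentage of OPC peaks that overlap an iOL peak in high-scoring peaks outside repeats (3.8%), lower-scoring peaks outside repeats (0.837%) and high-scoring peaks in repeats or 7SL copies (17.3%); right, the same percentage of the high-scoring peaks outside repeats by score band. Bars are shares, lines are exact 95% binomial intervals, and the counts stand above them.

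Of the 17 shared peaks 9 were intergenic without a CpG label, 4 lay at CpG islands, 2 in exons, 1 in an intron and 1 at a promoter. The overlaps ran from 18 to 205 bp with a median of 163 bp. At CpG islands the shared peaks were those nearest to Atp5mg (score 31.3), to Rnase4, a secreted ribonuclease (14.7), to Arhgef39, a guanine nucleotide exchange factor (13.4), and to the histone gene Hist1h2bo (10.2). The exon peaks were in Ubb (23.0) and in the last exon of Necap2, an endocytosis protein whose peak was assigned to Crocc as the nearest start (10.2).

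The shared promoter peak lay at the start of a gene for a catalytic RNA and scored 19.8 (chr15:27739078-27739282). The deposited name was Rmrp, the RNA of RNase MRP, whereas RefSeq lists that gene ID as Rpph1, the RNA of RNase P, with Rmrp as a synonym, the biotype of an RNase MRP RNA and a position within the span of Parp2, a poly(ADP-ribose) polymerase. Which of the RNAs it is was not settled here. Both RNAs are made by RNA polymerase III. The promoter label of this peak named a transcript of Parp2, so by that label it was also a promoter peak of Parp2. The overlap with the iOL peak was 103 bp.

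The other shared peaks were intergenic without a CpG label or in an intron. The intron peak, in Hs6st3, scored 16 and was assigned to Oxgr1, the receptor for oxoglutarate, whose start was 290 kb away. Intergenic shared peaks scored 19.8 at 30.1 kb from the olfactory receptor Or4d11 and at 78 kb from the ubiquitin ligase Herc4. They scored 14.7 at 25 kb from Dse, a dermatan sulfate epimerase, and 14 at 161 kb from Pmp22, a myelin protein of peripheral nerve. At 10.2 were those nearest to Psat1, an enzyme of serine synthesis (510 kb), and to Magec2 (284 kb). At 9.58 were those nearest to Hapln1 (8.87 kb), Pxmp4 (45.8 kb) and Odf1 (60.2 kb).

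Near misses were few. A further 10 peaks lay within 1 kb of an iOL peak without overlap, among them peaks in an intron of the complement gene C3 (gap 224 bp), in an intron of the ubiquitin-conjugating enzyme gene Ube2e2 (70 bp) and in the histone gene Hist1h4m (801 bp). Counting any iOL peak within 1 kb gave 6.04% of the high-scoring and 2.05% of the lower-scoring peaks. Within 10 kb the shares were 14.5% (11.4 to 18.2%) and 11% (10.2 to 11.9%). Within 50 kb they were 40.3% (35.7 to 45%) and 38.2% (36.9 to 39.5%). The intervals overlap at 10 kb and at 50 kb.

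The share of peaks at promoters, exons and CpG islands was higher in high-scoring than in lower-scoring peaks, with intervals that did not overlap. The shares in introns and between genes, counted without CpG island peaks, were lower. Intergenic CpG island peaks went the other way, at 8.95% against 4.49%. At promoters there were 45 of 447, or 10.1% (7.44 to 13.2%), against 5.68% (5.09 to 6.32%) of the lower-scoring peaks. Exons held 68, or 15.2% (12 to 18.9%), against 9.8% (9.03 to 10.6%), and CpG islands outside exons and promoters held 57, or 12.8% (9.8 to 16.2%), against 7.68% (6.99 to 8.4%). First exons accounted for 5.37% (3.47 to 7.88%) against 2.4% (2.02 to 2.84%), and later exons, with 44 of the 68 peaks, for 9.84% (7.24 to 13%) against 7.39% (6.72 to 8.11%), whose intervals overlap. At a score of 11 or more promoters held 7.83% and intergenic sequence without a CpG label 40%, both nearer to the lower-scoring shares. Introns held 22.4% (18.6 to 26.5%) against 29.1% (27.9 to 30.3%), and intergenic sequence without a CpG label 35.6% (31.1 to 40.2%) against 43.3% (42 to 44.6%).

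The distance to the nearest start was shorter. Its median was 16.6 kb for high-scoring and 25.8 kb for lower-scoring peaks. Within 1 kb lay 20.8% (17.1 to 24.9%) of the high-scoring peaks and 13.5% (12.6 to 14.4%) of the lower-scoring ones. Between 20 and 100 kb the shares were 26.2% (22.2 to 30.5%) and 36.7% (35.5 to 38%). At 100 kb or more they were 18.8% (15.3 to 22.7%) and 19% (18 to 20.1%). No test was made of these shares, since position and score come from the same peaks.

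**Figure D3:**
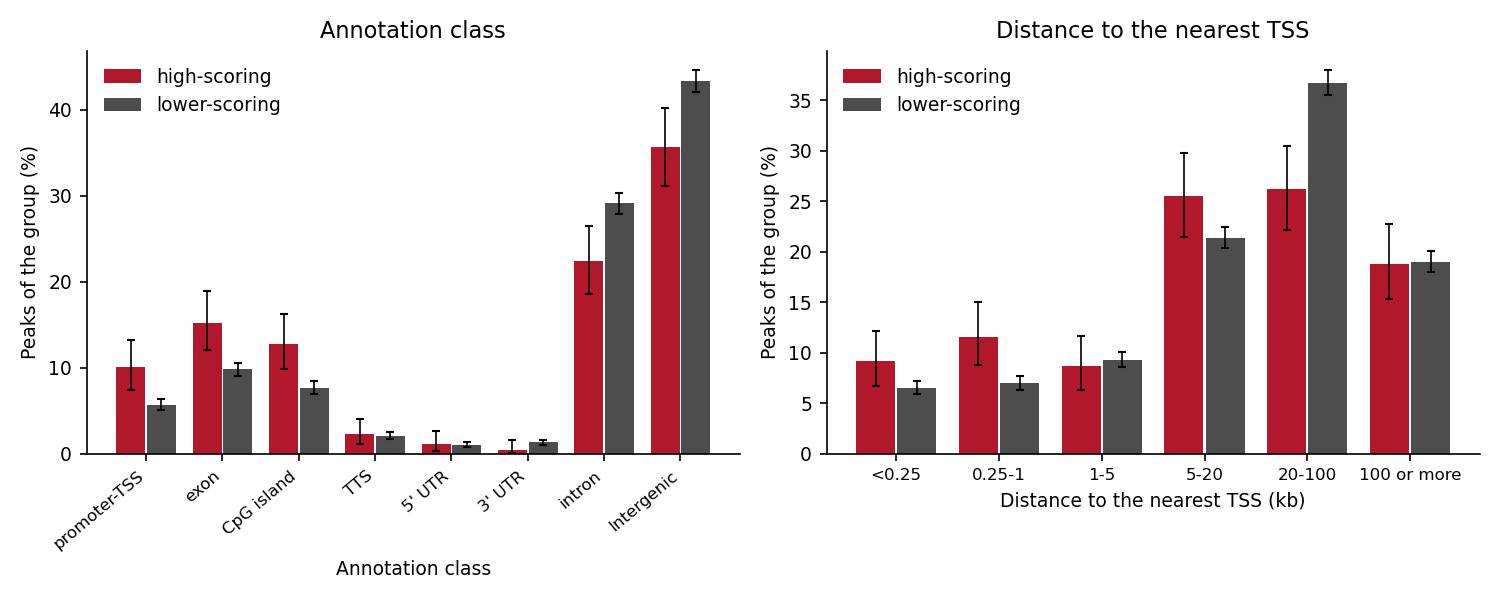
Percentage of high-scoring (447) and lower-scoring (5615) OPC peaks outside repeats by annotation class, left, and by distance to the nearest TSS in kb, right; bars are shares and lines exact 95% binomial intervals. Promoters, exons and CpG islands hold more of the high-scoring peaks, and 20 to 100 kb holds fewer.

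Among the high-scoring promoter peaks, after the catalytic RNA gene (19.8) came Ndufs7, a subunit of respiratory complex I (14), Plekhg2, a guanine nucleotide exchange factor (13.4), Polr3e, Mettl26 and Agbl5, a tubulin deglutamylase (12.8 each), and Ovol1, a zinc-finger repressor, and Niban2 (11.5 each). Dbn1, the actin-binding protein drebrin, and the adaptor gene Dok6 stood at 10.9. Of the 45 promoter peaks, 1 was shared with iOL, the one at the catalytic RNA gene and labelled with a Parp2 transcript.

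The promoters printed above can be set against all others. Only 25 of the 45 promoter peaks were centred from 250 bp before to 100 bp after the start. The shares below therefore describe the 250 bases of each promoter and not the sequence under its peak. Of the 34 high-scoring promoter peaks whose gene had a sequence in the table, 27 had a GC box in the 250 bases before the start, or 79.4% (62.1 to 91.3%). That share was 64.5% (58.2 to 70.5%) for 248 promoters with a lower-scoring peak and 32.4% for all 27457 promoters of the table. Median GC content was 66% in promoters with a high-scoring peak, 64.4% with a lower-scoring peak and 52% over all promoters. The median number of CG dinucleotides was 20 with a high-scoring peak, 20 with a lower-scoring peak and 6 over all. The intervals of the GC box shares with a high-scoring and a lower-scoring peak overlap. The GC box is the site bound by Sp1-type factors.

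E-boxes gave the opposite order of shares. CANNTG occurred in 15 of the 34 promoters, or 44.1% (27.2 to 62.1%), in 54.8% (48.4 to 61.1%) of those with a lower-scoring peak and in 65.2% of all promoters, and the first of these intervals overlaps the second. CCAAT occurred in 23.5% of promoters with a high-scoring peak, 31% with a lower-scoring peak and 34.3% of all. TATAAA occurred in 0 of 34 with a high-scoring peak (exact upper bound 10.3%), 7.66% with a lower-scoring peak and 13.1% of all. The GC box and CANNTG differ in base composition, as do the groups of promoters, and a match is a description of these letters only.

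**Figure D4:**
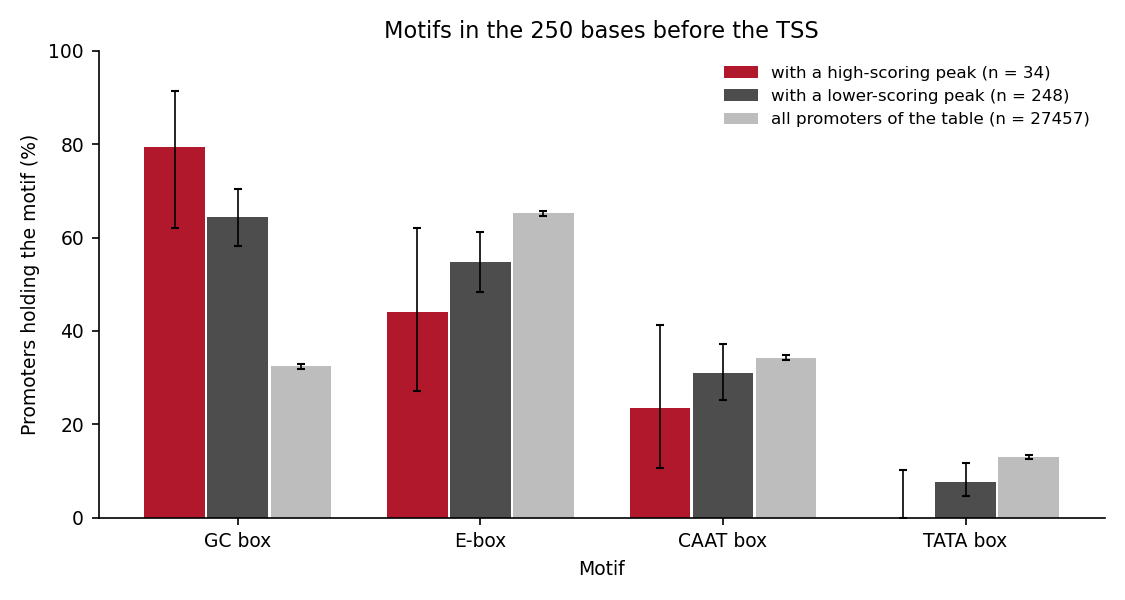
Percentage of promoters that hold each motif in the 250 bases before the TSS, on either strand, for promoters with a high-scoring peak (34), with a lower-scoring peak (248) and all promoters of the RefSeq table (27457); lines are exact 95% binomial intervals. The GC box is in 79.4% of the first group and 32.4% of all promoters, the E-box in 44.1% and 65.2%.

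In Polr3e the motif GGTTCGA, the core of the B box inside transfer RNA genes to which the polymerase III factor TFIIIC binds, began 206 bases before the start. The peak reached from 218 to 14 bases before it, by its deposited distance. Mettl26 also held the motif, 197 bases before its start. Its 205 bp wide peak was centred 484 bp upstream, so by that distance the motif lay outside the peak. Peak distances count from the rn6 start and motif positions from the GRCr8 start. These starts were not compared, so neither placement is settled. GGTTCGA occurred in 2 of the 34 promoters, or 5.88% (0.72 to 19.7%), in 5 of 248 with a lower-scoring peak, or 2.02%, and in 0.83% of all promoters. This motif was chosen after the Polr3e sequence had been read, and whether a transfer RNA gene lies there was not tested.

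In a few genes several exon peaks gathered. The deposited table assigns each peak to the nearest start, which in 14 of 67 exon peaks was not the gene whose exon it lay in, so the annotated transcript was used here. In Nf1, which encodes neurofibromin, an inhibitor of Ras, all 8 OPC peaks lay in exons and none in introns: exons 20, 22, 25, 26, 30, 35, 40 and 42 of 61. They scored 8.94, 8.3, 10.9, 8.3, 13.4, 10.2, 10.2 and 8.3 in that order over 113 kb of chromosome 10, so 4 of them were high-scoring. The table gave 3 of those 4 to Omg, the oligodendrocyte myelin glycoprotein gene, which lies inside Nf1. No Nf1 peak overlapped an iOL peak, although 2 iOL peaks lay elsewhere in that span, 85.1 and 103.5 kb after the first OPC peak.

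Lmna, the gene of the nuclear lamins A and C, had 3 peaks, all high-scoring and all in exons: 14.7 in exon 1, 11.5 in exon 7 and 10.2 in exon 11 of 12. No Lmna peak overlapped an iOL peak, and no iOL peak lay from 5 kb before to 5 kb after them.

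**Figure D5:**
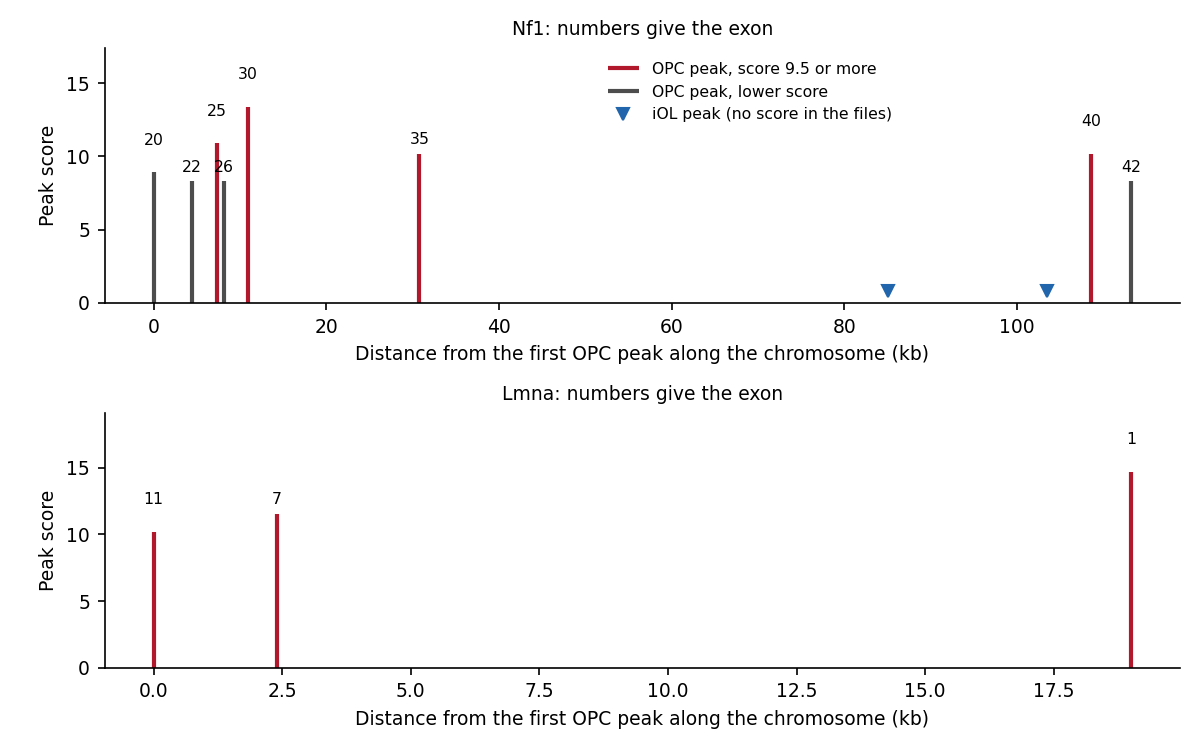
Score of each OPC peak (vertical lines) in Nf1 and Lmna against its distance in kb from the first peak along the chromosome; numbers name the exon, red lines score 9.5 or more, grey lines less, and triangles are iOL peaks. The OPC peaks stand at exons, and both iOL peaks of the Nf1 span lie between the OPC peaks of exons 35 and 40.

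Such gatherings were rare. Of 1119 genes with an OPC peak at a promoter, exon, UTR or transcript end, 1060 had 1 such peak, 54 had 2 and 5 had 3 or more, among them Nf1, Lmna and Ssc5d. High-scoring peaks also lay in exons of Rad54l, a recombination gene (14.7, exon 8 of 19), Stk11, a kinase upstream of AMPK (12.1, exon 1 of 10), the cell cycle inhibitor Cdkn1c (12.1, exon 3 of 4), the checkpoint kinase gene Chek2 (10.9, exon 12 of 15) and Tsc2, an inhibitor of mTORC1 signalling (9.58, exon 15 of 42). None of these overlapped an iOL peak.

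A list of 50 tumour suppressor and DNA repair genes was written after these names had been seen, and so carries no test. Of its genes 9 (18%) had a high-scoring peak at the promoter, an exon, a UTR or the transcript end, where 0.488% of the 23154 protein-coding genes did. Counting OPC peaks of any score, 15 (30%) of the list and 4.76% of coding genes had one. The lower-scoring ones included single exon peaks in Atm (7.66), Men1 (8.3), Rad51c (7.66) and Cdkn2a (6.38).

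Other exon peaks of high score were in Vim, the intermediate filament vimentin (15.3, exon 1 of 9), Ppm1d, a phosphatase that acts on p53 (14), Tesmin (12.1) and the transcription factor gene Gata5 (12.1). In 5′ UTRs there were 5 peaks, in Pms2 (16), Ago1, an Argonaute protein (11.5), Alkal2 (10.2), Tram1l1 and Azin1 (9.58 each). The 2 in 3′ UTRs, in Ano1 and in Ywhaz, scored 9.58. Transcript ends held 10, the highest in Lrrc41 and Fbxo11 (12.8 each), with those of the microRNA genes Mir760 (10.9) and Mir370 (10.2).

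MicroRNA genes were nearest to 10 peaks, 3 of them within 1 kb: Mir148a, Mir370 and Mir760. The mature sequences of those 3 are shown with the arm named, and with them both members of the miR-193 family, because their 3p arms share a seed. Capitals mark the seed, bases 2 to 8, in RefSeq's GRCr8 sequences.
rno-miR-193a-3p: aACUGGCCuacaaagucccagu
rno-miR-193b-3p: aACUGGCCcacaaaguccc
rno-miR-148a-3p: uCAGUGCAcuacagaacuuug
rno-miR-370-3p: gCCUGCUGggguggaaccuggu
rno-miR-760-3p: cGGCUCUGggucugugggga

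The peak near Mir193 scored 20.4 and the one near Mir193b, in a CpG island 10.7 kb upstream, scored 12.1. The deposited table has the Mir193b peak on chromosome 14, while the RefSeq table has that gene on chromosome 10; the nearest gene changed chromosome between builds for 7 of 442 matched peaks. The peak 733 bp upstream of Mir148a scored 9.58. None of the 5 overlapped an iOL peak.

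CpG island peaks included, after those assigned to Ezh2, Atp5mg, Fcgr2a and Uspl1, one in an intron of the integrin gene Itgae (14). Others had as nearest gene Or6s1 (16, at 7.45 kb), the neural transcription factor gene Zic5 (15.3, at 56.4 kb) or Rnase4 (14.7, at 1.63 kb). Stx11 (14, at 46.5 kb) and Zfp131 (13.4, at 125 kb) were nearest to further ones. Of the 57, 40 were intergenic and 17 intronic. The intergenic ones made up 8.95% (6.47 to 12%) of the high-scoring and 4.49% (3.96 to 5.06%) of the lower-scoring peaks. Intronic ones made up 3.8% (2.23 to 6.02%) and 3.19% (2.74 to 3.68%).

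Close neighbours were counted among all annotated OPC peaks, repeats included. Another OPC peak lay within 1 kb of 24 of them, or 5.37% (3.47 to 7.88%), against 1.37% (1.08 to 1.71%) of lower-scoring peaks. Within 10 kb the shares were 18.3% (14.9 to 22.2%) and 13.3% (12.4 to 14.2%). There were 5 pairs of high-scoring peaks within 1 kb, among them a pair near Atp5mc1, another subunit of ATP synthase (13.4 and 12.1), a pair near the natural killer receptor gene Nkr-p1c (11.5 and 10.9) and a pair in exons 5 and 4 of Fhl1 (10.9 and 9.58). In all, 26 genes were nearest to at least 2 high-scoring peaks and 3 of them, Lmna and Omg included, to at least 3. The 5 peaks nearest to RT1 class I genes, all on chromosome 20, included none that overlapped an iOL peak.

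The oligodendrocyte lineage lists were set beside all coding genes. Over all 23154 protein-coding genes 1.71% were nearest to a high-scoring peak, and 24.2% to any annotated OPC peak. Those genes are RefSeq's for GRCr8, while nearest genes came from an rn6 annotation. Lists outside the lineage also stood above 24.2%: 38.9% of microglia, 45% of neuron and 36.7% of ribosomal protein genes were nearest to some OPC peak. Of the 17 lists only the histone list, at 18.5%, stood below, so shares above 24.2% are not read as particular to the lineage. Of 30 OPC genes and differentiation inhibitors 1 was, Sox9, with a peak at 84.9 kb (9.58), while 17 were nearest to some OPC peak. Of 33 myelin and oligodendrocyte genes 1 was, Pllp, the myelin proteolipid plasmolipin (11.5, 11.1 kb upstream), and 14 to any. Omg and Pmp22, named above, were not in that list. One gene makes 3.33% of a list of 30, so a count of 1 is read neither as scarcity nor as excess.

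In the Wnt, Notch and BMP list 2 of 38 genes had one, the receptor Fzd3 (10.9, intron 1) and the ligand Wnt7b (9.58, intron 3), and 25 had any OPC peak. Hes7, named above, and Wnt11 (9.58) were also nearest to a high-scoring peak but were not in that list. No high-scoring peak was nearest to any of 15 thyroid hormone genes (7 had some OPC peak), 27 genes of the BAF and PBAF chromatin remodellers (12), 18 microglia genes (7) or 25 genes of cholesterol synthesis (11). This covers only the genes listed. Fcgr2a and C3, named above, and Fcgr3a (14.7 and 11.5) were nearest to high-scoring peaks but were in none of the lists. Among 30 nucleoporins, Seh1's own family of pore proteins, 2 had a high-scoring peak, Nup62 and Sec13. The Nup62 peak lay in exon 2 of 2 (10.2). That of Sec13, another Y-complex subunit, lay 133 kb away in an intron of Atp2b2 (9.58).

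Polycomb genes with a high-scoring peak were 3 of 29: Ezh2, Cbx7 (9.58, exon 1 of 6) and Aebp2 (9.58, at 298 kb). Abundant housekeeping and cytoskeletal genes counted 5 of 30, among them Ubb, Vim, Actg1 (10.2) and Hspa5 (9.58), of which Ubb and Vim had a peak inside the gene. Cell cycle genes counted 2 of 30, Cdkn1c and Ccnd1 (10.2, at 105 kb), histone genes 2 of 27, astrocyte genes 2 of 22, Vim and Sox9, neuron genes 1 of 20, ribosomal protein genes 1 of 30, Rps24 (11.5), and immediate early genes 1 of 24, Dusp1 (10.2, exon 1 of 4). The RNA polymerase III and snRNA list had 6 matched genes, of which 1, the gene listed as Rpph1 or Rmrp, had a high-scoring peak. Over the 17 lists 22 distinct genes were nearest to one. Genes outside the lists, such as Aurkb (12.8), Nr4a2 (10.2) and Id1 (9.58), were nearest to a high-scoring peak but were not counted. Counting any OPC peak, the lists gave 13 of 29 Polycomb, 17 of 30 housekeeping and 11 of 30 cell cycle genes. They gave 5 of 27 histone, 15 of 22 astrocyte, 9 of 20 neuron and 11 of 30 ribosomal protein genes. For immediate early genes it was 9 of 24, for the polymerase III list 2 of 6 and for nucleoporins 15 of 30. The high-scoring Rps24 peak lay 112 kb from the start of that gene.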

How the data were processed

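Seh1 ChIP-seq libraries of rat OPC and iOL, 1 each, were analysed from the deposited peak lists. Bowtie2, HOMER and the builds rn6 and hg18 are named, without role or version, in the submitters' processing notes; read filters, peak thresholds and the handling of multiply mapping reads are not given in the sources used. The annotated table is recorded under iOL. Per the file headers it is HOMER annotatePeaks.pl output for rn6, and the input's name combines the OPC Seh1 library with the iOL IgG library. Of its 9084 intervals 9084 equal OPC intervals and 0 equal iOL intervals, so it was used for OPC; 33 OPC peaks have no annotation. The deposited score and the deposited focus ratio, a fraction, were used as they stand. A peak list keeps no depth, so a weak site under the threshold in one library is missing from its list.

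An overlap of 1 bp or more with an iOL peak made a peak shared. Fisher's exact tests were run with scipy 1.17.1 and shares have exact 95% binomial intervals (Clopper-Pearson). Nearest genes were matched by ID to RefSeq (GRCr8) for 442 of 447 peaks and transcripts for 239 of 248, for names only. Motifs were counted on both strands of RefSeq's 250 bases before the TSS, for each gene nearest to a promoter-labelled peak and listed there. Named peaks were the 20 highest, all shared ones, the highest of each class, genes with at least 2 peaks and list genes. The threshold, members and lists were chosen with earlier results of these data known, and the rise of sharing with score was among those results, so it is not independent support. Counting of overlaps was tested on simulated data. Some items are not reported here.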

Additional observations from a re-analysis of the deposited data

How the results depend on the processing

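Both comparisons of sharing with iOL kept their direction and stayed past the threshold of 0.05 under every alternative tried: 7 for the comparison with lower-scoring peaks and 3 for that with high-scoring repeat peaks. No alternative changes that the rise of sharing with score was known beforehand, and repeat copies were counted as separate peaks throughout. The share of high-scoring peaks that were shared ran from 2.97% at a score of 8.5 or more to 8.7% at 11 or more, against 0.747% and 0.908% of the peaks below. Asking for an overlap of 50% gave 3.13%. Leaving out peaks within 50 kb of another high-scoring one, an alternative chosen after seeing the data, gave 3.57%. The adjusted p nearest to the threshold was 0.0249, against repeat peaks without 7SL and 7SK copies, where the range over the 3 alternatives began at 4.01e-11. Among annotation shares, 20.8% of the high-scoring peaks counted as promoter peaks by a distance of 1000 bp or less, since introns and exons near a start then count too. At a score of 11 or more, CpG islands held 16.5%, introns 14.8% and promoters 7.83% of 115 peaks. Intergenic sequence without a CpG label held 40%. Promoters and intergenic sequence then stood nearer to the lower-scoring shares of 5.68% and 43.3%, and the cause was not tested. No paired analysis was possible because each stage had 1 library. Without replicates or read totals, a peak missing from the iOL list cannot be told apart from one that was not detectable at its depth.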
